A study of Mus musculus with 14 samples.

Results

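The 37 genes examined here are mouse genes known to be imprinted that lie outside the Prader-Willi domain, the chromosome 7 region from which paternal expression is lost in Prader-Willi syndrome. They were taken from a fixed list of symbols, and every probe set annotated to a symbol was used. Of the 37 symbols, 33 had a probe set on the array, 80 probe sets in all among the 45037 measured. Dio3, Slc22a3, Zrsr1 and Peg13 had none. H19 was read through 1 probe set annotated to both H19 and Mir675, a microRNA gene inside it, and the other 79 probe sets carried 1 symbol. The genes belong to 17 imprinted domains, each named below by its best known member.

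The arrays were of PWS-IC del mice, which carry a deletion of the imprinting centre of the Prader-Willi domain, and of age-matched wild-type littermates. All mice were F1 hybrids of FVB and B6. Each genotype was measured in whole brain and in a thigh muscle of the quadriceps group, the vastus lateralis, with 3 PWS-IC del and 4 wild-type arrays per tissue and 14 arrays in all. The labels give neither age, sex, nor the parent that passed on the deletion, and they do not say which brain and muscle samples share a mouse. They call the arrays biological replicas. With 3 and 4 arrays a group, precision is limited throughout.

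An imprinted gene is expressed from the copy inherited from 1 parent only. The choice is set by DNA methylation laid down in the egg or sperm at an imprinting control region, which usually governs a cluster of genes with maternal and paternal expression side by side, often together with a long non-coding RNA. Proteins such as ZFP57 hold the methylation through early development by binding the methylated letters TGCCGC. Many imprinted genes act on fetal growth, and brain is a tissue in which many of them stay active after birth. The arrays measured total RNA of each gene and not the parental copy it came from. In whole tissue, fewer cells of a type and less RNA per cell cannot be told apart.

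Sequences of the start regions of these genes were read in windows, and some are printed here. Each window runs from 250 bases before to 50 bases after a RefSeq transcript start in GRCm38.p6, is written 5′ to 3′ on the gene's strand, and has its CpG pairs, the letters that carry methylation, in capitals. Of the 37 genes on the list, 30 had at least 1 window among those read, among them Dio3, Slc22a3 and Zrsr1, which had no probe set. The remaining genes, Impact among them, had no window among those read. This does not show that they have no transcript start, and the counts of windows below leave them out. These 30 genes had 46 windows in all. Those of Peg3 and Usp29 are shown because the 2 genes start back to back and share 263 bases on opposite strands, and because both had probe sets among the 8 with the smallest p in muscle. That of Meg3 is shown because all of its probe sets lay on the same side in brain, and that of Nap1l5 because it had the largest tissue difference among the paternally expressed genes' main probe sets.
Peg3, chr7:6730370-6730669, minus strand: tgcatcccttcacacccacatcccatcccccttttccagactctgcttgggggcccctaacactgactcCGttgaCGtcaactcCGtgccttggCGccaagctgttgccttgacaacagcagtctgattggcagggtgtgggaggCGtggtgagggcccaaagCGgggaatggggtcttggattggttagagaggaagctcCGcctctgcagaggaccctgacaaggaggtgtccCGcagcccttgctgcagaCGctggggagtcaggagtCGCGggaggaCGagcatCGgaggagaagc
Usp29, chr7:6730333-6730632, plus strand: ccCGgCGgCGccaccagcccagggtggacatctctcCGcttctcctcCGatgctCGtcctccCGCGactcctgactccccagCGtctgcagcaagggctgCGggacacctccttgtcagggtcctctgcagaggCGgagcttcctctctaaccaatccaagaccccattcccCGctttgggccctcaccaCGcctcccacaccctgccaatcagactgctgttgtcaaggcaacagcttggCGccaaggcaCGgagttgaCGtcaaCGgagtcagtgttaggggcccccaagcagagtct
Meg3, chr12:109540746-109541045, plus strand: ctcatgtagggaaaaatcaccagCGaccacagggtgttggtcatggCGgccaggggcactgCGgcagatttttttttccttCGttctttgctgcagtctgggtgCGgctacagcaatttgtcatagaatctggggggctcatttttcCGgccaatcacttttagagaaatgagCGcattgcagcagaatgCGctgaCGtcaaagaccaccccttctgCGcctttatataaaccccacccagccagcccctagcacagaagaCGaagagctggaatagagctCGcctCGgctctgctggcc
Nap1l5, chr6:58907077-58907376, minus strand: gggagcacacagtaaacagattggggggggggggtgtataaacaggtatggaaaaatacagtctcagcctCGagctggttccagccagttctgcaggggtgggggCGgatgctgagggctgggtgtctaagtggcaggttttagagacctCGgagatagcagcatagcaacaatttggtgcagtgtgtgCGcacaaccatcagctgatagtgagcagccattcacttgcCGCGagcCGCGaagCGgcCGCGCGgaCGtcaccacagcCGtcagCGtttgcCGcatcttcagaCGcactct
The windows hold 13 CpG pairs for Peg3, 17 for Usp29, 13 for Meg3 and 17 for Nap1l5, where the median of all 32851 RefSeq windows of this length was 7. TGCCGC, searched on both strands, occurred 1 time in the Meg3 window and 2 times in that of Nap1l5, and these letters were not in those of Peg3 and Usp29. Among all windows 11.6% held the motif, and among the 46 windows of these genes 13 did (28.3%). The motif itself contains a CpG pair, and most of the 46 windows hold more CpG pairs than the median of 7. The 2 shares were not matched for CpG content. Of the 13 windows, 2 are windows of Mest that overlap almost fully.

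Several of the RNAs carry microRNAs within their RefSeq span, 20 hairpins in 8 genes, of which 10 lie in Mirg. The arrays measured the long host RNAs and not the mature microRNAs. Those printed are of the host genes whose values the results turn on, with the seed, bases 2 to 8, in capitals.
miR-675-5p of H19: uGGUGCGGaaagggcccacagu
miR-675-3p of H19: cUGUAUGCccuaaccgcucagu
miR-770-5p of Meg3: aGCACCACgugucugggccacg
miR-370-3p of Rian: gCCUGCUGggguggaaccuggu
miR-453 of Mirg: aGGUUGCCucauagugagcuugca
miR-496a-5p of Mirg: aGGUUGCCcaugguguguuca
miR-3099-3p of Usp29: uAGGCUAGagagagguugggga
miR-335-5p of Mest: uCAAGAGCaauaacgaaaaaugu
Of the 39 seeds among the 40 mature sequences, 1 was shared, by miR-453 and miR-496a-5p.

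Levels below are log2(intensity + 16), on which the floor of the scale is 4, and they can be compared between arrays for 1 probe set but not between probe sets. The deletion was visible in the targeted domain, though not at every gene in both tissues. Snrpn (1432096_at) was at 6.48, 5.03 and 5.44 in PWS-IC del brain, against 10.29, 10.59, 10.64 and 10.55 in wild-type brain. Snhg14 (1436964_at) was at 6.13, 5.92 and 6.23 in PWS-IC del muscle, against 8.16, 8.41, 8.34 and 8.24 in wild-type muscle. In muscle Snrpn differed between genotypes by only -0.39 and Magel2 by -0.03. Ipw differed by -0.09 in brain and 0.49 in muscle. Counts for the whole domain are given with the other lists below. The neuronal marker Snap25 was at 13.66 to 13.83 in the brain arrays and the muscle creatine kinase Ckm at 13.68 to 13.88 in the muscle arrays. Some arrays stood apart. Wild-type brain 1 and 2 lay at 84.3 and 32.1 on the first principal component of the brain arrays, against -33.4 to -12.8 for the other 5. Pcp2, a marker of cerebellar Purkinje cells, was at 16.76 in PWS-IC del brain 2 and 13.03 in wild-type brain 3, and at 8.19 to 8.79 in the other 5 arrays labelled whole brain, near its 8.41 to 8.72 in muscle. Muscle transcripts were high in wild-type brain 1 and 3, where Ckm reached 10.38 and 9.61 against 6.38 to 7.25 in the other brain arrays. Wild-type brain 3 also held the pituitary hormone RNA Prl at 10.45, against 5.84 to 6.38 elsewhere in brain. Wild-type muscle 2 and 4 held Snap25 at 9.23 and 7.79, against 4.00 to 6.96 in the other muscle arrays.

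Between the genotypes, 0 of the imprinted genes changed past the threshold in either tissue, whereas most differed between wild-type brain and muscle. In brain, 65 probe sets of 29 genes passed the filter on low values and 0 were called by limma at an adjusted p of 0.05, where 0.0711% of all 33778 probe sets tested were called, all 24 of them lower in PWS-IC del. At an unadjusted p under 0.05 there were 2 imprinted probe sets, against 6.35% of all tested, and 0 had genotype groups that did not overlap, against 7.87%. In muscle, 0 of 60 tested probe sets of 31 genes were called, where 0.142% of all were. Unadjusted, 11 had a p under 0.05, against 12.1% of all, and 8 had groups that did not overlap, against 11.9%, with 4 of them higher in PWS-IC del (5.13% of all) and 4 lower (6.76%). The genotype effect differed between the tissues (brain effect minus muscle effect) for 0 of 64 tested probe sets, against 0.0770% of all, with 7 at an unadjusted p under 0.05, against 5.42%, of which 4 were of Meg3 and 1 each of Peg3, Usp29 and Rasgrf1. The median genotype difference (PWS-IC del minus wild-type) of the tested imprinted probe sets was -0.04 in brain and 0.03 in muscle, beside 0.02 and -0.00 over all probe sets tested. With equal weight to each array this was so in every alternative fit of the 3 comparisons, except that Usp29 passed in muscle at an adjusted threshold of 0.1.

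**Figure D1:**
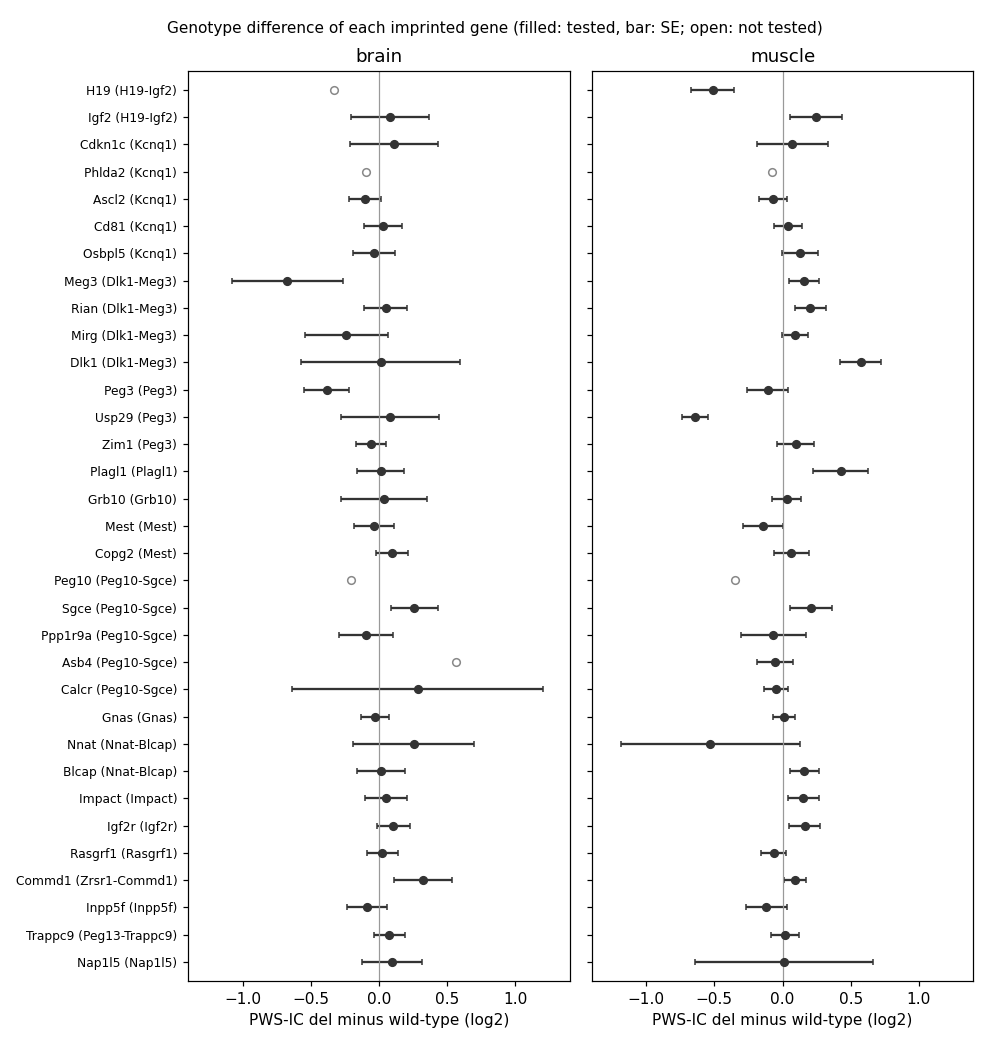
Genotype difference of each imprinted gene in brain (left) and muscle (right), PWS-IC del minus wild-type on the log2 scale, at the gene's brightest probe set on average. Points are differences, bars are ± 1 SE of limma, and open points were below the filter and not tested. No filled point passed the threshold, and the widest bars are those of Calcr in brain and of Nnat and Nap1l5 in muscle.

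The plot of genotype differences, with 1 probe set per gene, shows most genes close to 0 in both tissues, with bars that cross it. Some tested probe sets that are not plotted lay further from 0 in brain. They reached -0.65 for Sgce, against 0.26 at its main probe set, -0.54 for Rian, -0.51 for Ppp1r9a and 0.43 for Gnas, and none was called. Each gene was given a fixed label of its known parental copy, Igf2 as paternal, and the arrays did not measure whether the label holds in these tissues. By this label, the 33 tested probe sets of maternally expressed genes had a median difference of -0.10 in brain, 22 of them negative, and the 22 of paternally expressed genes a median of 0.02, with 9 negative. In muscle the medians were 0.06 over 35 probe sets of maternally and 0.01 over 17 of paternally expressed genes. The probe sets of a gene are not independent, and 11 of those of maternally expressed genes belong to Meg3.

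Between wild-type brain and wild-type muscle, 59 of 64 tested probe sets passed the test, 51 higher in brain and 8 lower, where 76.4% of all probe sets tested passed, 58.1% higher and 18.3% lower. The 20 tested probe sets of paternally expressed genes were all higher in brain. Of the 35 of maternally expressed genes, 25 were higher and 8 lower. The median difference (brain minus muscle) was 2.10 over the imprinted probe sets and 0.53 over all. These counts depend on the scaling of the arrays, whose normalization is not known: centring each array on its median moved the median of all probe sets tested to -0.15 and the imprinted calls to 41 higher (30.8% of all) and 14 lower (40.6%), and of all calls 43.1% were then higher in brain, against 76.0% as deposited, and of the imprinted calls 74.5%, against 86.4%. Quantile normalization gave 42 higher (31.2%) and 13 lower (41.4%). Without the 4 wild-type arrays that held transcripts of another tissue, brain 1 and 3 and muscle 2 and 4, an alternative chosen after seeing the data, 54 of 63 passed, 47 of them higher, where 21805 of all 33778 passed, 16643 of them higher.

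**Figure D2:**
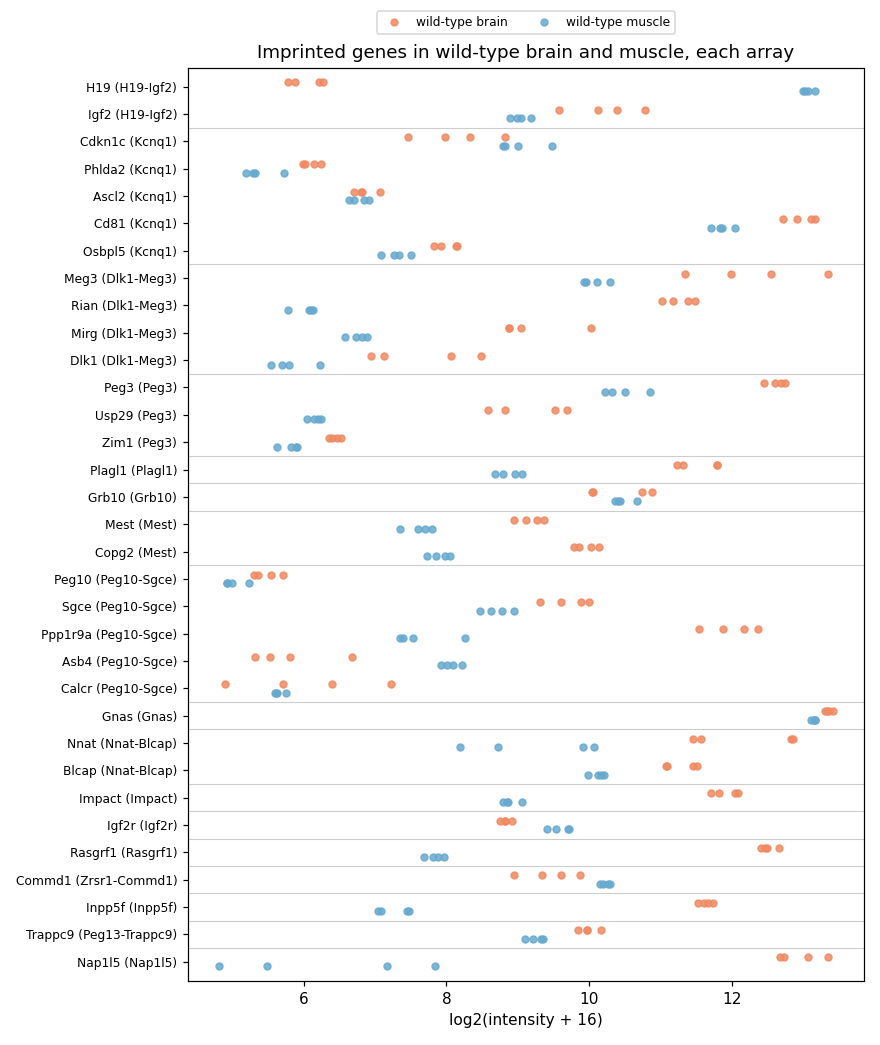
Level of each imprinted gene in wild-type brain and wild-type muscle as log2(intensity + 16), 1 point per array (4 per tissue), at the gene's probe set with the highest mean, ordered by imprinted domain. H19 lies far to the right in muscle, and Rian, Rasgrf1, Inpp5f, Ppp1r9a and Nap1l5 far to the right in brain.

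H19 and Igf2 share a domain on chromosome 7. H19 is a maternally expressed non-coding RNA that is abundant in muscle, and Igf2 is a paternally expressed growth factor. H19 was at 12.55, 12.92 and 12.17 in PWS-IC del muscle, against 12.99, 13.02, 13.16 and 13.06 in wild-type muscle. H19 was at 5.88, 5.74 and 5.49 in PWS-IC del brain, against 6.26, 5.88, 6.22 and 5.78 in wild-type brain. H19 was lower in wild-type brain than in wild-type muscle, -7.02 ± 0.13 (SE, adjusted p = 7.17e-10), a difference whose size depends on a brain level that was not shown to be above background. Between genotypes in muscle, the 3 PWS-IC del values lay below all 4 wild-type values, -0.51 ± 0.16 (SE, adjusted p = 0.27). Between genotypes in brain the level was below the filter and was not tested, and the highest 2 brain values were in wild-type brain 1 and 3, the arrays with the high Ckm. Igf2 was at 9.87, 10.44 and 10.58 in PWS-IC del brain, against 9.58, 10.13, 10.39 and 10.78 in wild-type brain. Igf2 was at 9.16, 9.77 and 8.88 in PWS-IC del muscle, against 8.89, 9.19, 8.99 and 9.04 in wild-type muscle. Igf2 was higher in brain, 1.19 ± 0.22 (SE, adjusted p = 7.63e-04), and its genotype groups overlapped in both tissues, 0.08 ± 0.29 (SE, adjusted p = 0.908) in brain and 0.25 ± 0.19 (SE, adjusted p = 0.639) in muscle. The second probe set (1415931_at), at 4.00 to 5.98 in all arrays, was not tested.

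Igf2 varied between the brain arrays together with choroid plexus transcripts. Igf2 is made in the choroid plexus and the meninges in adult rodent brain, from both copies. Cdkn1c, a maternally expressed inhibitor of cyclin-dependent kinases from the neighbouring Kcnq1 domain, did so as well. Cdkn1c was at 7.94, 8.10 and 8.74 in PWS-IC del brain, against 7.46, 7.98, 8.33 and 8.82 in wild-type brain. Kl, a choroid plexus marker, was at 7.89, 8.31 and 9.69 in PWS-IC del brain, against 6.59, 6.85, 9.15 and 9.89 in wild-type brain. Wild-type brain 1 was the lowest and wild-type brain 4 the highest for all 3 genes. Of the other choroid plexus markers, Ttr had the same lowest and highest arrays and the rest did not. Folr1 and Kcnj13 were highest in PWS-IC del brain 3, at 9.67 and 10.32, and Clic6 was lowest in wild-type brain 2, at 7.64. All 5 choroid plexus markers were measured and none was at the floor, and their summed intensity ranged over 9088 to 16520 in PWS-IC del brain and 4111 to 17095 in wild-type brain. The part of these cells in the values of Igf2 and Cdkn1c was not tested.

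In the rest of the Kcnq1 domain the maternally expressed genes differed less. Cdkn1c was at 9.14, 9.65 and 8.50 in PWS-IC del muscle, against 9.001, 9.48, 8.79 and 8.83 in wild-type muscle. Cdkn1c was lower in wild-type brain than in wild-type muscle, -0.87 ± 0.27 (SE, adjusted p = 0.0152), although the groups overlapped, and 0.11 ± 0.32 (SE, adjusted p = 0.879) and 0.07 ± 0.26 (SE, adjusted p = 0.937) were its genotype differences in brain and muscle. Cd81 was at 13.02, 13.13 and 12.86 in PWS-IC del brain, against 12.72, 12.91, 13.16 and 13.10 in wild-type brain. Cd81 was at 11.96, 11.96 and 11.79 in PWS-IC del muscle, against 11.83, 12.04, 11.71 and 11.85 in wild-type muscle. Cd81, a membrane protein of the tetraspanin family, was higher in brain, 1.11 ± 0.12 (SE, adjusted p = 2.11e-05), with no overlap between tissues. Osbpl5 was at 7.95, 8.24 and 7.72 in PWS-IC del brain, against 7.82, 8.14, 8.14 and 7.92 in wild-type brain. Osbpl5 was at 7.54, 7.55 and 7.18 in PWS-IC del muscle, against 7.26, 7.51, 7.34 and 7.08 in wild-type muscle. Osbpl5, a lipid transfer protein, was higher in brain as deposited, 0.71 ± 0.12 (SE, adjusted p = 4.60e-04), but by 0.03 after median centring and at -0.05 after quantile normalization. Ascl2, a transcription factor of the placenta, was at 6.59 to 7.07 in all 14 arrays at its main probe set and differed by 0.07 between tissues, a value that turned to -0.60 with median centring. Phlda2, a growth-limiting gene of the placenta, was at 5.19 to 6.28 and was not tested.

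The Dlk1-Meg3 domain on chromosome 12 makes the non-coding RNAs Meg3, Rian and Mirg from the maternal copy, the last 2 as hosts of small nucleolar RNAs and microRNAs, and Dlk1, a membrane protein that holds back fat cell formation, from the paternal copy. All 19 probe sets of the domain were higher in wild-type brain than in wild-type muscle, with differences of 1.84 to 5.97 and a median of 3.40. Rian was at 11.50, 11.06 and 11.39 in PWS-IC del brain, against 11.38, 11.03, 11.48 and 11.17 in wild-type brain. Rian was at 6.23, 6.10 and 6.35 in PWS-IC del muscle, against 5.78, 6.07, 6.13 and 6.11 in wild-type muscle. Rian differed between tissues by 5.24 ± 0.13 (SE, adjusted p = 1.41e-09) and its genotype groups overlapped in both. Mirg was at 9.34, 8.96 and 8.60 in PWS-IC del brain, against 10.03, 8.88, 8.87 and 9.05 in wild-type brain. Mirg was at 6.90, 6.81 and 6.82 in PWS-IC del muscle, against 6.59, 6.81, 6.88 and 6.74 in wild-type muscle. Mirg was higher in brain as well, 2.45 ± 0.24 (SE, adjusted p = 8.27e-06), and wild-type brain 1 stood above the other 6 brain arrays.

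Meg3 had 11 probe sets, more than any other gene, and in brain all 11 differences between PWS-IC del and wild-type were negative, without any passing the test. They ran between -0.88 and -0.45 with a median of -0.67, and the smallest adjusted p was 0.614. At its main probe set (1439380_x_at) Meg3 was at 11.49, 11.66 and 11.75 in PWS-IC del brain, against 13.34, 12.55, 11.98 and 11.35 in wild-type brain. A probe set ending in _x_at or _s_at may also bind related transcripts, and 3 of the 11 have such names. At 1428765_at Meg3 was at 10.98, 10.49 and 10.69 in PWS-IC del brain, against 12.40, 11.44, 11.36 and 10.78 in wild-type brain, a difference of -0.77 ± 0.34 (SE, adjusted p = 0.614). At 1452906_at Meg3 was at 12.37, 11.78 and 12.11 in PWS-IC del brain, against 13.43, 12.71, 12.72 and 12.11 in wild-type brain. At 1428764_at Meg3 was at 11.56, 10.25 and 11.18 in PWS-IC del brain, against 12.85, 11.68, 11.65 and 11.23 in wild-type brain. At these last 3 probe sets wild-type brain 1 was the highest array, while wild-type brain 4 lay among the PWS-IC del values. At 1429257_at Meg3 was at 11.14, 10.15 and 10.70 in PWS-IC del brain, against 12.74, 11.47, 11.23 and 10.73 in wild-type brain. At 1426758_s_at Meg3 was at 10.35, 10.04 and 10.49 in PWS-IC del brain, against 12.35, 11.23, 10.66 and 10.22 in wild-type brain. At 1452183_a_at Meg3 was at 10.90, 11.001 and 10.995 in PWS-IC del brain, against 12.93, 11.99, 11.21 and 10.82 in wild-type brain. These 3 again had wild-type brain 1 at the top, well above the next array.

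**Figure D3:**
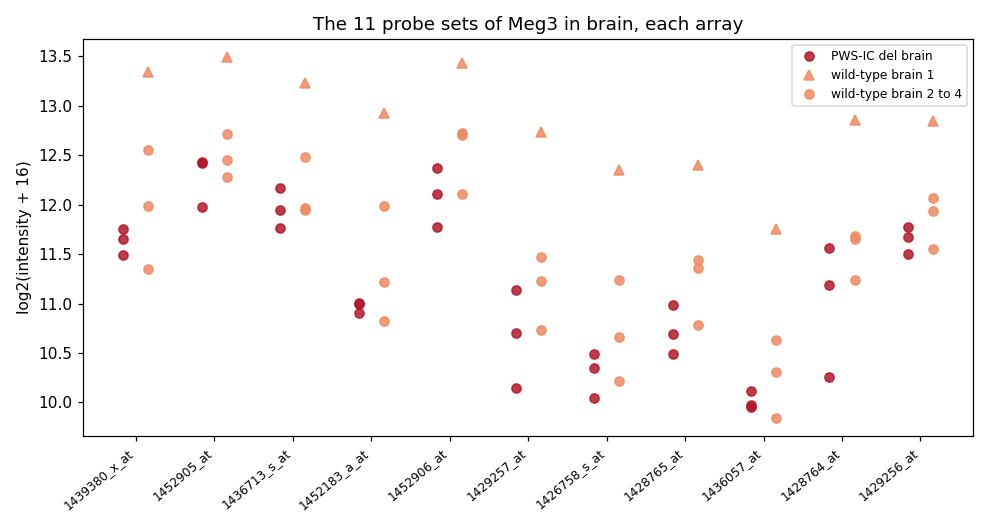
The 11 probe sets of Meg3 in brain as log2(intensity + 16), 1 point per array, with the 3 PWS-IC del arrays left of the 4 wild-type arrays at each probe set. Triangles mark wild-type brain 1, which is the highest array at all 11 probe sets, while wild-type brain 4 is at no probe set above the highest PWS-IC del array.

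The plot of the Meg3 probe sets shows the weight of wild-type brain 1 in these differences. Without wild-type brain 1 the 11 differences ran between -0.53 and -0.17 with a median of -0.37, and without wild-type brain 1 and 2 between -0.45 and -0.03 with a median of -0.22, all 11 still negative. Without wild-type brain 1 and 3, 10 of 11 were negative and the median was -0.32. Wild-type brain 1 and 2 scored highest on the first principal component of the brain arrays, and muscle transcripts were found in wild-type brain 1 and 3. The part of these features in the Meg3 values was not tested further.

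In muscle Meg3 had no common direction, and 6 of 11 differences were positive, between -0.42 and 0.52. At the main probe set Meg3 was at 10.14, 10.31 and 10.23 in PWS-IC del muscle, against 10.11, 10.29, 9.96 and 9.92 in wild-type muscle. At 1426758_s_at Meg3 was at 8.11, 8.12 and 7.87 in PWS-IC del muscle, against 7.47, 7.72, 7.38 and 7.49 in wild-type muscle, where the groups did not overlap and the difference was 0.52 ± 0.11 (SE, adjusted p = 0.139). At 1428765_at the groups were apart in the opposite direction, with 7.06, 6.91 and 7.20 in PWS-IC del muscle, against 7.46, 7.73, 7.22 and 7.52 in wild-type muscle, -0.42 ± 0.13 (SE, adjusted p = 0.27). At 1452183_a_at Meg3 was at 8.73, 8.94 and 8.52 in PWS-IC del muscle, against 8.28, 8.57, 8.25 and 8.22 in wild-type muscle, where the groups overlapped and the difference was 0.40 ± 0.13 (SE, adjusted p = 0.281). The brain effect minus the muscle effect was negative at all 19 probe sets of the domain, between -1.33 and -0.11, with 4 at an unadjusted p under 0.05 and 0 called, and at 1426758_s_at it was -1.33 ± 0.50 (SE, adjusted p = 0.874). Meg3 was higher in wild-type brain than in wild-type muscle at all 11 probe sets, by 2.23 to 5.97, all past the threshold, with 2.23 ± 0.36 (SE, adjusted p = 2.69e-04) at the main one.

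Dlk1 varied more between brain arrays than between genotypes. Dlk1 was at 8.59, 8.15 and 6.27 in PWS-IC del brain, against 7.13, 6.95, 8.49 and 8.07 in wild-type brain. Dlk1 was at 6.40, 6.39 and 6.37 in PWS-IC del muscle, against 5.54, 5.79, 6.23 and 5.69 in wild-type muscle. In muscle the PWS-IC del values lay close together and above all 4 wild-type values, 0.57 ± 0.15 (SE, adjusted p = 0.213), which did not pass the test, and in brain the difference was 0.01 ± 0.59 (SE, adjusted p = 0.993). Its tissue difference was 1.84 ± 0.33 (SE, adjusted p = 5.78e-04). The second probe set (1442724_at) ran in brain between 4.24 in PWS-IC del brain 3 and 9.44 in PWS-IC del brain 1.

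The brain arrays with low Dlk1 were also those with the lowest Pmch. Pmch, the precursor of melanin-concentrating hormone made in the lateral hypothalamus, was at 9.04, 10.99 and 6.49 in PWS-IC del brain, against 6.37, 6.11, 11.67 and 7.83 in wild-type brain. Calcr, the maternally expressed calcitonin receptor, and Asb4, a maternally expressed adaptor of ubiquitin ligases, both known to be active in the hypothalamus, followed the same arrays. Calcr was at 8.06, 6.96 and 4.00 in PWS-IC del brain, against 5.72, 4.89, 7.22 and 6.39 in wild-type brain. Asb4 was at 7.21, 6.86 and 5.14 in PWS-IC del brain, against 5.32, 5.53, 6.68 and 5.81 in wild-type brain. PWS-IC del brain 3 and wild-type brain 1 and 2 held the 3 lowest values of Pmch, of Dlk1 and of Asb4, and also of Calcr, which reached the floor in PWS-IC del brain 3. The other measured hypothalamic markers, Hcrt, Oxt, Avp and Trh, did not follow this order. Trh was at 9.28, 6.88 and 6.69 in PWS-IC del brain, against 7.90, 7.85, 7.57 and 8.53 in wild-type brain. Of the 6 names 5 were measured and none was at the floor. Their summed intensity ranged over 819 to 15627 in PWS-IC del brain and 912 to 5764 in wild-type brain. PWS-IC del brain 3 and wild-type brain 1 and 2 also held the 3 lowest brain values of markers of other cells. These were the astrocyte markers Aqp4 and Gfap, but not Aldh1l1 and Slc1a2, and the oligodendrocyte markers Mog and Mobp, but not Mbp. Fibroblast markers with this order were Col3a1, Dcn, Ogn and Aldh1a2, but not Col1a1, Col1a2, Lum and Slc6a13. The part of hypothalamic tissue or of these other cells in the values of Dlk1, Calcr and Asb4 was not tested. Leaving out the 3 arrays with the lowest Pmch, chosen after seeing the data, called 0 of 68 imprinted probe sets, in a fit that called 32 of all 33778.

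**Figure D4:**
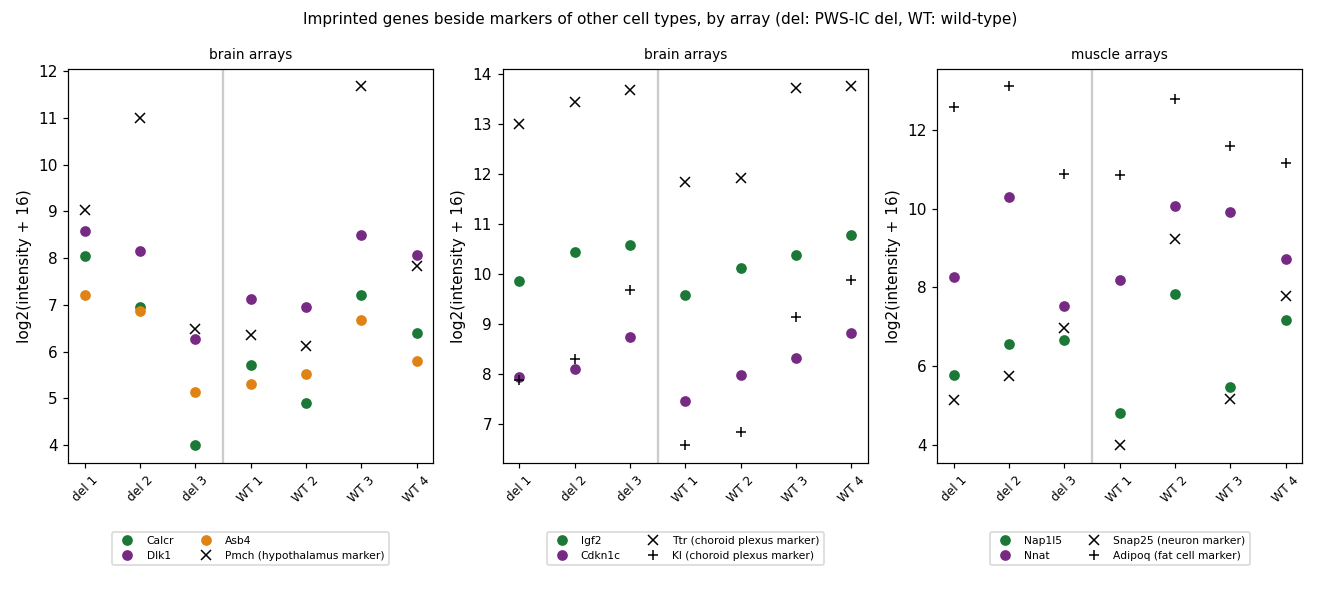
Imprinted genes beside markers of other cell types, 1 point per array as log2(intensity + 16), with PWS-IC del (del) left of wild-type (WT) in each panel. Left: Calcr, Dlk1 and Asb4 are low in the brain arrays with low Pmch. Middle: Igf2 and Cdkn1c beside Ttr and Kl in brain. Right: in muscle, Nap1l5 is highest in wild-type muscle 2 and 4, where Snap25 is highest, and Nnat is highest in PWS-IC del muscle 2 and wild-type muscle 2, where Adipoq is highest, while wild-type muscle 3 and PWS-IC del muscle 1 do not keep to that order.

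In the Peg3 domain of chromosome 7, Peg3, a paternally expressed zinc finger protein, Usp29, a ubiquitin peptidase, and Zim1, a maternally expressed zinc finger gene, were all higher in wild-type brain than in wild-type muscle. The 3 genes together gave 6 tested probe sets, whose tissue differences ran between 0.32 and 4.75. Usp29 was at 5.56, 5.63 and 5.36 in PWS-IC del muscle, against 6.05, 6.20, 6.24 and 6.15 in wild-type muscle. Usp29 was at 9.70, 9.51 and 8.50 in PWS-IC del brain, against 8.82, 8.59, 9.53 and 9.69 in wild-type brain. In muscle all 3 PWS-IC del values of Usp29 lay below all 4 wild-type values, and the difference of -0.64 ± 0.10 (SE, adjusted p = 0.0567) had the smallest p of any imprinted probe set in either tissue. PWS-IC del muscle 1 and 3 lay below the muscle filter level of 5.62, and the probe set passed the filter through its wild-type values. The PWS-IC del level was not shown to be above background, which limits the reading of this Usp29 difference and its p. Over the alternatives its adjusted p ranged between 0.00867 with array quality weights and 0.599 with a joint fit of all 14 arrays. In brain the groups overlapped, 0.08 ± 0.36 (SE, adjusted p = 0.924), and the 2 lowest wild-type values and the lowest PWS-IC del value were those of the arrays low in Pmch. The tissue difference was 3.00 ± 0.23 (SE, adjusted p = 1.39e-06). Its other probe set (1427551_at) differed by 0.17 in muscle and by -0.20 ± 0.11 (SE, adjusted p = 0.614) in brain, where it had 6.66, 6.44 and 6.71 in PWS-IC del brain, against 6.79, 6.88, 6.87 and 6.69 in wild-type brain. It was at 6.37 to 6.88 in all 14 arrays, and its tissue difference of 0.32 turned to -0.36 with median centring and -0.29 with quantile normalization.

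Peg3, which starts back to back with Usp29 in the windows printed above, had differences in muscle that depended on the probe set. At 1433924_at Peg3 was at 8.86, 9.01 and 8.55 in PWS-IC del muscle, against 8.14, 8.42, 8.11 and 8.22 in wild-type muscle, 0.59 ± 0.13 (SE, adjusted p = 0.146). At 1417356_at Peg3 was at 7.03, 7.37 and 6.66 in PWS-IC del muscle, against 5.97, 6.42, 6.22 and 6.41 in wild-type muscle, 0.76 ± 0.17 (SE, adjusted p = 0.159). At both the PWS-IC del arrays lay above all wild-type arrays. At the main probe set (1417355_at) Peg3 was at 10.36, 10.50 and 10.24 in PWS-IC del muscle, against 10.85, 10.32, 10.22 and 10.50 in wild-type muscle, where the groups overlapped and the difference was -0.11 ± 0.15 (SE, adjusted p = 0.806). In brain it was the main probe set that had the smaller p, -0.38 ± 0.17 (SE, adjusted p = 0.614). Peg3 was at 12.63, 12.06 and 12.03 in PWS-IC del brain, against 12.75, 12.61, 12.68 and 12.46 in wild-type brain there, with PWS-IC del brain 1 among the wild-type values. At 1433924_at Peg3 was at 12.60, 12.51 and 11.90 in PWS-IC del brain, against 12.39, 12.14, 12.67 and 12.44 in wild-type brain. At 1417356_at Peg3 was at 11.44, 11.20 and 10.43 in PWS-IC del brain, against 10.86, 10.32, 11.48 and 11.35 in wild-type brain. At both the brain groups overlapped. The difference between the brain and muscle effects was -0.66 ± 0.25 (SE, adjusted p = 0.874) at 1433924_at. Its tissue difference was 2.15 at the main probe set and 4.19 and 4.75 at the other 2. Of the remaining 2 probe sets, at 4.00 to 4.84, neither was tested. Zim1 was at 6.23, 6.51 and 6.40 in PWS-IC del brain, against 6.40, 6.46, 6.52 and 6.36 in wild-type brain. Zim1 was at 5.80, 6.20 and 5.72 in PWS-IC del muscle, against 5.62, 5.91, 5.82 and 5.90 in wild-type muscle. Zim1 differed between tissues by 0.62 ± 0.10 (SE, adjusted p = 2.30e-04), but by -0.05 with median centring and 0.08 with quantile normalization.

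**Figure D5:**
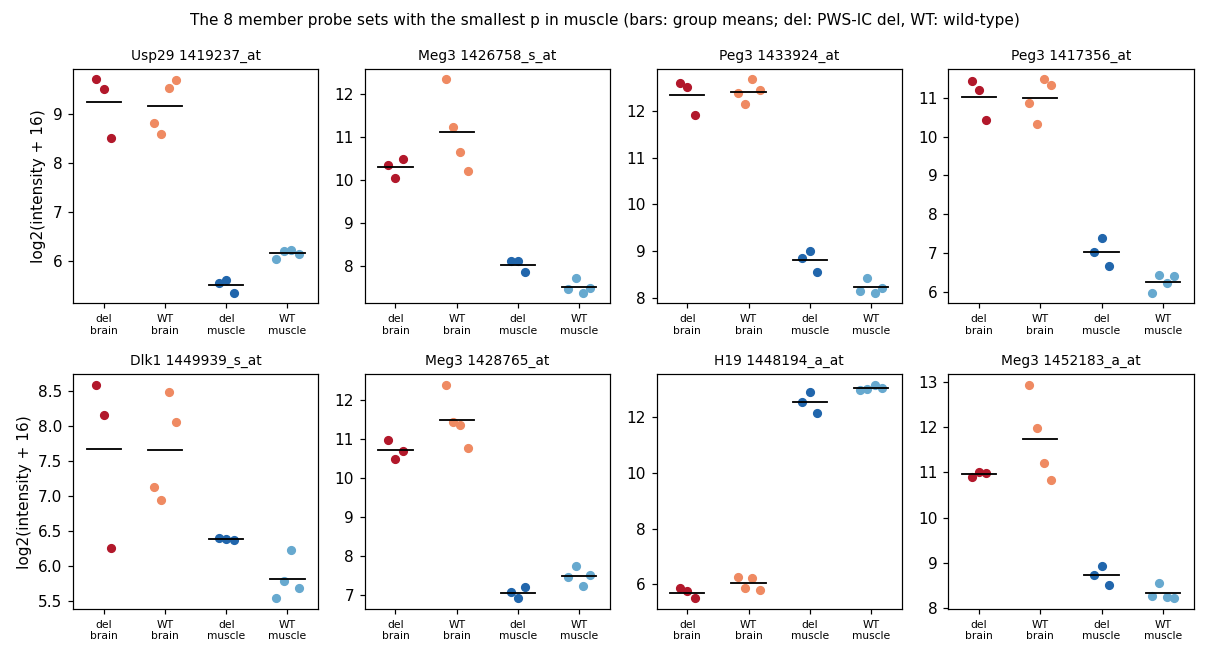
The 8 imprinted probe sets with the smallest p in muscle, as log2(intensity + 16), 1 point per array with group means as bars, in the order PWS-IC del brain, wild-type brain, PWS-IC del muscle and wild-type muscle. In muscle the PWS-IC del arrays lie above all wild-type arrays for Meg3 1426758_s_at, both Peg3 probe sets and Dlk1, and below all of them for Usp29, Meg3 1428765_at and H19, while Meg3 1452183_a_at overlaps.

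The plot of the 8 probe sets with the smallest muscle p shows 5 genes of 3 domains and both directions of difference. Whether any passed depended on how the arrays were weighted. With array quality weights, 11 of the 60 tested imprinted probe sets passed in muscle, where 8.88% of all probe sets tested did. They were of Peg3 (2 probe sets), Usp29, Meg3 (4), Plagl1, Ppp1r9a, Impact and Igf2. In that fit PWS-IC del muscle 2 had a weight of 4.85, against 0.581 and 0.387 for the other 2 PWS-IC del arrays and 0.746 to 1.57 for wild-type. PWS-IC del muscle 2 had the highest summed intensity of the fat cell markers and of the fibroblast markers, though not of each marker. The fat cell marker Lep was at 8.71 there and at 9.31 in wild-type muscle 2. The fibroblast markers Dcn, Slc6a13 and Aldh1a2 were also highest in other arrays. Adipoq, a fat cell marker, was at 12.58, 13.10 and 10.89 in PWS-IC del muscle, against 10.85, 12.78, 11.59 and 11.17 in wild-type muscle. The 3 measured fat cell markers of 5 summed to 2109 to 10636 in PWS-IC del muscle and 2255 to 8315 in wild-type muscle, and the 8 fibroblast markers to 16597 to 29015 in PWS-IC del muscle and 16128 to 23355 in wild-type muscle. The genotypes overlapped in both sums. They did not overlap in 2 other lists of the 16 summed. The 5 smooth muscle and pericyte markers summed to 7109 to 8267 in PWS-IC del muscle and 10144 to 12217 in wild-type muscle (exact permutation test, 2-sided p = 0.0286, the smallest it can give, 0.381 adjusted over the lists). The 8 skeletal muscle fibre markers summed to 107086 to 115419 in PWS-IC del muscle and 115803 to 123439 in wild-type muscle (exact permutation test, 2-sided p = 0.0571, 0.381 adjusted). The part of any of these cells in the muscle differences was not tested.

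Several imprinted genes of smaller domains were far higher in brain. Nap1l5, a nucleosome assembly protein family member expressed from the paternal copy, was one. Nap1l5 was at 13.29, 13.22 and 12.62 in PWS-IC del brain, against 12.73, 12.67, 13.35 and 13.07 in wild-type brain. Nap1l5 was at 5.78, 6.57 and 6.67 in PWS-IC del muscle, against 4.81, 7.85, 5.48 and 7.17 in wild-type muscle. It was higher in wild-type brain by 6.62 ± 0.59 (SE, adjusted p = 4.02e-06), and the genotype differences were 0.09 ± 0.22 (SE, adjusted p = 0.852) in brain and 0.01 ± 0.65 (SE, adjusted p = 0.996) in muscle. Wild-type muscle 2 and 4 had the highest muscle values of Nap1l5, of the neuronal marker Snap25 and of the astrocyte marker Slc1a2. Slc1a2 was at 9.02 and 7.74 there, against 5.09 to 6.91 in the other muscle arrays. The other astrocyte markers, Gfap, Aqp4 and Aldh1l1, did not keep to this order. Among the muscle arrays Aqp4 was lowest in wild-type muscle 2, at 9.55. Aldh1l1 was highest in PWS-IC del muscle 2, at 9.45, and Gfap in PWS-IC del muscle 3, at 7.23. All 5 neuron markers were measured, and their summed intensity was 281 to 444 in PWS-IC del muscle and 209 to 1479 in wild-type muscle, with Snap25 at the floor in wild-type muscle 1. The 4 astrocyte markers summed to 1596 to 2087 in PWS-IC del muscle and 1161 to 1780 in wild-type muscle, and the part of neural tissue in the Nap1l5 values was not tested. Without wild-type muscle 2 and 4 there were 0 called imprinted probe sets of 59 in muscle, in a fit that called 12 of all 33778.

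Rasgrf1, a paternally expressed activator of Ras in neurons, was even between arrays. Rasgrf1 was at 12.63, 12.58 and 12.38 in PWS-IC del brain, against 12.41, 12.46, 12.66 and 12.49 in wild-type brain. Rasgrf1 was at 7.80, 7.70 and 7.82 in PWS-IC del muscle, against 7.69, 7.96, 7.88 and 7.82 in wild-type muscle. It was higher in brain by 4.67 ± 0.10 (SE, adjusted p = 8.98e-10), and by 6.89 and 4.37 at its other probe sets, and its genotype differences were 0.02 to 0.07 in brain. Inpp5f, a phosphoinositide phosphatase with an imprinted variant, had the same pattern. Inpp5f was at 11.72, 11.70 and 11.22 in PWS-IC del brain, against 11.60, 11.52, 11.74 and 11.67 in wild-type brain. Inpp5f was at 7.28, 7.28 and 6.87 in PWS-IC del muscle, against 7.08, 7.44, 7.04 and 7.48 in wild-type muscle. Its tissue difference was 4.37 ± 0.13 (SE, adjusted p = 2.57e-09), and the other 2 probe sets gave 3.65 and 1.94. Impact, a paternally expressed inhibitor of a kinase that slows translation, was higher in brain at all 3 probe sets. Impact was at 12.19, 12.02 and 11.70 in PWS-IC del brain, against 11.82, 11.71, 12.09 and 12.04 in wild-type brain. Impact was at 9.25, 8.97 and 8.90 in PWS-IC del muscle, against 8.79, 9.05, 8.86 and 8.84 in wild-type muscle. The main probe set differed by 3.03 ± 0.11 (SE, adjusted p = 1.02e-08) between tissues and by 0.15 ± 0.11 (SE, adjusted p = 0.623) between genotypes in muscle. At 1446750_at the muscle genotype groups did not overlap, the PWS-IC del arrays being lower, -0.25 ± 0.08 (SE, adjusted p = 0.297).

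Plagl1, a paternally expressed zinc finger transcription factor of growth control, and Mest, a paternally expressed membrane protein, were also higher in brain. Plagl1 was at 11.64, 11.58 and 11.40 in PWS-IC del brain, against 11.23, 11.32, 11.79 and 11.79 in wild-type brain. Plagl1 was at 9.54, 9.61 and 8.75 in PWS-IC del muscle, against 8.97, 9.06, 8.69 and 8.79 in wild-type muscle. Plagl1 differed by 2.65 ± 0.16 (SE, adjusted p = 2.10e-07) between tissues and by 0.43 ± 0.20 (SE, adjusted p = 0.445) between genotypes in muscle, where PWS-IC del muscle 1 and 2 were above the wild-type arrays and PWS-IC del muscle 3 among them. Its probe set 1438588_at, 0.62 higher in brain as deposited, was at -0.06 with median centring. Mest was at 9.27, 8.91 and 9.24 in PWS-IC del brain, against 9.11, 9.27, 8.95 and 9.37 in wild-type brain. Mest was at 7.41, 7.76 and 7.24 in PWS-IC del muscle, against 7.79, 7.61, 7.35 and 7.70 in wild-type muscle. Mest differed by 1.56 ± 0.13 (SE, adjusted p = 2.61e-06) between tissues. Copg2, a coat protein of transport vesicles that overlaps Mest on the other strand, differed by 2.05 ± 0.11 (SE, adjusted p = 1.37e-07). Copg2 was at 10.12, 10.01 and 10.003 in PWS-IC del brain, against 9.79, 9.86, 10.03 and 10.14 in wild-type brain. Copg2 was at 7.999, 8.18 and 7.72 in PWS-IC del muscle, against 7.97, 8.05, 7.85 and 7.72 in wild-type muscle. For both genes the tissues did not overlap and the genotypes did.

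The Peg10-Sgce domain of chromosome 6 had members on both sides. Ppp1r9a, the maternally expressed actin-binding neurabin of synapses, had probe sets with opposite tissue differences. At the main probe set Ppp1r9a was at 11.87, 11.76 and 12.04 in PWS-IC del brain, against 12.36, 12.17, 11.54 and 11.87 in wild-type brain. Ppp1r9a was at 7.62, 7.87 and 7.20 in PWS-IC del muscle, against 7.39, 8.26, 7.53 and 7.35 in wild-type muscle. This was higher in brain by 4.35 ± 0.24 (SE, adjusted p = 1.13e-07), and so were 2 others, by 5.10 and 1.55. At 1457603_at the order was the reverse, -2.51 ± 0.14 (SE, adjusted p = 1.09e-07). At 1457603_at Ppp1r9a was at 6.36, 6.31 and 6.67 in PWS-IC del brain, against 6.56, 6.23, 6.51 and 6.42 in wild-type brain. At 1457603_at Ppp1r9a was at 8.69, 8.34 and 8.73 in PWS-IC del muscle, against 9.15, 8.91, 9.07 and 8.61 in wild-type muscle, -0.35 ± 0.15 (SE, adjusted p = 0.401). Sgce, a paternally expressed sarcoglycan of the dystrophin-associated complex, was higher in brain by 0.99 ± 0.17 (SE, adjusted p = 3.67e-04). Sgce was at 9.95, 10.08 and 9.84 in PWS-IC del brain, against 9.31, 9.61, 9.89 and 9.99 in wild-type brain. Sgce was at 9.07, 9.08 and 8.60 in PWS-IC del muscle, against 8.78, 8.95, 8.47 and 8.62 in wild-type muscle. After quantile normalization its tissue difference was 0.19. Peg10, a paternally expressed gene derived from a retrotransposon, was dim at 4.65 to 5.71 and was not tested. Asb4 was lower in wild-type brain than in wild-type muscle at both probe sets, -2.22 ± 0.26 (SE, adjusted p = 2.87e-05) at the main one. Asb4 was at 8.30, 7.93 and 7.79 in PWS-IC del muscle, against 8.09, 7.92, 8.22 and 8.004 in wild-type muscle. Calcr in muscle was at 5.50 to 5.75 and had a genotype difference of -0.05 ± 0.09 (SE, adjusted p = 0.852).

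At the Nnat-Blcap domain of chromosome 2, Nnat, the paternally expressed membrane protein neuronatin of neurons and fat cells, had a wide spread. Nnat was at 12.85, 12.76 and 11.68 in PWS-IC del brain, against 11.45, 11.56, 12.83 and 12.85 in wild-type brain. Nnat was at 8.26, 10.28 and 7.54 in PWS-IC del muscle, against 8.19, 10.07, 9.91 and 8.73 in wild-type muscle. In brain the 3 lowest values were those of PWS-IC del brain 3 and wild-type brain 1 and 2, the arrays low in Pmch, and in muscle the highest were PWS-IC del muscle 2 and wild-type muscle 2, the arrays with the highest Adipoq. The other muscle arrays did not keep to this order, since wild-type muscle 3 had Nnat at 9.91 with Adipoq at 11.59 and PWS-IC del muscle 1 had Nnat at 8.26 with Adipoq at 12.58. The tissue difference was 2.95 ± 0.49 (SE, adjusted p = 3.43e-04), and the genotype differences were 0.25 ± 0.44 (SE, adjusted p = 0.798) in brain and -0.53 ± 0.66 (SE, adjusted p = 0.78) in muscle. Blcap, which contains Nnat within an intron, was steadier. Blcap was at 11.52, 11.39 and 10.97 in PWS-IC del brain, against 11.08, 11.08, 11.45 and 11.50 in wild-type brain. Blcap was at 10.44, 10.31 and 10.08 in PWS-IC del muscle, against 10.20, 10.13, 10.16 and 9.99 in wild-type muscle. It was higher in brain by 1.16 ± 0.12 (SE, adjusted p = 1.64e-05).

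Gnas, which encodes the G protein subunit that activates adenylyl cyclase, and Grb10, an adaptor that dampens insulin and growth factor signalling, are imprinted in a tissue-dependent way. Gnas was at 13.43, 13.36 and 13.19 in PWS-IC del brain, against 13.33, 13.30, 13.36 and 13.41 in wild-type brain. Gnas was at 13.21, 13.21 and 13.06 in PWS-IC del muscle, against 13.16, 13.11, 13.17 and 13.15 in wild-type muscle. Gnas differed by 0.21 ± 0.08 (SE, adjusted p = 0.0361) between tissues as deposited, but by -0.47 with median centring and 0.22 with quantile normalization. Grb10 was at 10.89, 10.72 and 9.80 in PWS-IC del brain, against 10.05, 10.05, 10.88 and 10.74 in wild-type brain. Grb10 was at 10.60, 10.52 and 10.37 in PWS-IC del muscle, against 10.68, 10.40, 10.36 and 10.43 in wild-type muscle. Grb10, which uses the paternal copy in neurons and the maternal copy elsewhere, did not pass the tissue test at this probe set, -0.04 ± 0.20 (SE, adjusted p = 0.868), a value that was at -0.70 with quantile normalization. Of its other probe sets 1430164_a_at passed, 0.68 higher in brain as deposited and 0.00 with median centring.

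The other members with higher levels in muscle were 2 maternally expressed genes. Igf2r, a receptor that carries IGF2 to the lysosome, was lower in wild-type brain than in wild-type muscle, -0.77 ± 0.10 (SE, adjusted p = 6.83e-05). Igf2r was at 8.97, 9.10 and 8.72 in PWS-IC del brain, against 8.81, 8.82, 8.75 and 8.92 in wild-type brain. Igf2r was at 9.90, 9.75 and 9.61 in PWS-IC del muscle, against 9.54, 9.70, 9.72 and 9.41 in wild-type muscle. The other probe set differed by -0.19 and did not pass. Commd1, a regulator of copper handling, was lower in brain at both probe sets, -0.78 ± 0.18 (SE, adjusted p = 0.00278) and -0.98. Commd1 was at 9.76, 9.94 and 9.59 in PWS-IC del brain, against 8.94, 9.34, 9.61 and 9.87 in wild-type brain. Commd1 was at 10.35, 10.33 and 10.27 in PWS-IC del muscle, against 10.20, 10.15, 10.26 and 10.29 in wild-type muscle. In brain the genotype difference of Commd1 was 0.32 ± 0.21 (SE, adjusted p = 0.614), with wild-type brain 1 lowest. Trappc9, a maternally expressed part of a vesicle tethering complex, was higher in brain by 0.74 ± 0.10 (SE, adjusted p = 1.17e-04) as deposited, by 0.06 with median centring and at -0.04 with quantile normalization. Trappc9 was at 10.08, 10.15 and 9.96 in PWS-IC del brain, against 9.84, 9.97, 9.96 and 10.17 in wild-type brain. Trappc9 was at 9.41, 9.25 and 9.13 in PWS-IC del muscle, against 9.35, 9.21, 9.33 and 9.10 in wild-type muscle.

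Lists of other genes of the same pathways and domains were read in the same fits, where 0.0711% of all probe sets in brain and 0.142% in muscle were called, so that few or no calls would be met in lists of this size. Of 48 further names in the same imprinted domains 40 had a probe set, and 0 of 52 tested probe sets were called in brain and 0 of 58 in muscle, with medians of -0.07 and -0.00. The smallest p in muscle were those of Kcnq1ot1, the non-coding RNA of the Kcnq1 domain, which averaged 8.78 ± 0.14 (SD, n = 3) in PWS-IC del muscle, against 8.31 ± 0.09 (SD, n = 4) in wild-type muscle (adjusted p = 0.132), and of Pon1, a lipid-handling esterase, which averaged 7.24 ± 0.57 in PWS-IC del muscle, against 5.74 ± 0.51 in wild-type muscle (adjusted p = 0.134). In brain they were those of Cep41, a centrosomal protein, with a difference of -0.47, and Slc22a18, a transporter, with 0.36, both at an adjusted p of 0.614. Of the insulin-like growth factor axis, with 17 of 18 names measured, 0 of 40 probe sets were called in brain and 0 of 42 in muscle, with medians of 0.03 and 0.05. Igfbp3, which binds IGF in blood, had the smallest p in muscle, at 9.07 ± 0.45 in PWS-IC del muscle, against 8.27 ± 0.10 in wild-type muscle (adjusted p = 0.162), followed by Igf2bp1, an RNA-binding protein, with -0.38. In brain these were Igfbp7 with -0.36 and Igfbp5 with 0.29, 2 further IGF-binding proteins. Of the factors that keep or read imprints, 0 of 38 were called in brain and 0 of 36 in muscle, with medians of 0.01 and -0.04. Dnmt3a, the enzyme that sets DNA methylation in the germ line, had the smallest p in muscle. It was at 5.24 ± 0.20 in PWS-IC del muscle, against 5.95 ± 0.11 in wild-type muscle (difference -0.71, adjusted p = 0.0724). The PWS-IC del mean of Dnmt3a lay below the muscle filter level of 5.62, and its probe set passed the filter through its wild-type values. Its PWS-IC del level was not shown to be above background, which limits the reading of this difference and its p. Arid4b, a chromatin protein, was next with 0.41. In brain Smchd1, a silencing factor, had -0.29 and Ctcf, the insulator protein of the H19-Igf2 domain, 0.21. Within the targeted domain, 9 of 12 tested probe sets of paternally expressed genes were called lower in PWS-IC del brain and 7 of 10 in PWS-IC del muscle, and 0 of 9 of the maternally expressed Ube3a and Atp10a were called in either tissue.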

How the data were processed

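Total RNA of each sample was hybridised to 1 Affymetrix mouse gene expression array, and the authors deposited 1 intensity per probe set, made with PLIER in Affymetrix Expression Console per the submitters' processing notes. The normalization between arrays is not given in the sources used here, and no detection calls were used. After 64 control probe sets were left out, log2(intensity + 16) of 45037 probe sets was fitted with limma 3.58.1 (lmFit and eBayes, R 4.3.3), with genotypes compared within each tissue, wild-type brain against wild-type muscle, and the difference of the genotype effects. Probe sets with a mean below the 0.25 quantile of the arrays fitted were left out, 33778 were tested, and p-values were adjusted over all of them by Benjamini-Hochberg at 0.05. The fits were tested on simulated data. Gene names came from the platform annotation, in which 34945 probe sets had 1 symbol, 932 several and 9160 none listed. The members and lists were chosen with earlier results of these data known. Named genes are, in each tissue's genotype comparison, the 8 members with the smallest p, and in the tissue comparison those that passed. As 59 probe sets passed there, arrays are given for each gene's probe set with the highest mean, and ranges for further ones. Alternatives were the pseudocount, scaling, filter, 1 probe set per gene, intensity trend, array weights, replicate block, joint fit, threshold and left-out arrays.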

Additional observations from a re-analysis of the deposited data

Results flagged for a closer look

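Among 66 looks at the wild-type arrays, 1 for each of the 33 genes in each tissue at its probe set with the highest mean, 2 had an array far from the other 3 by Dixon's criterion, which chance meets in about 1 in 20 groups. Mirg was at 10.03 in wild-type brain 1, while the nearest of the other wild-type brain arrays was at 9.05 and the lowest at 8.87. Calcr was at 5.75 in wild-type muscle 3, while the nearest of the other wild-type muscle arrays was at 5.62 and the lowest at 5.60.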

How the results depend on the processing

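No imprinted probe set was called for genotype in brain or for the difference between tissues under any alternative run. In muscle, array quality weights called 11 and a threshold of 0.1 called 1. Leaving out 1 array gave 0 to 0 imprinted calls for each genotype comparison and 58 to 60 for tissue. With 1 probe set per gene, which tests fewer features, 27 of 29 imprinted and 11268 of all 13645 tested were called between tissues. Over all probe sets, the brain genotype count was 9 with 1 probe set per gene and 20 to 24 with 1 array left out. The muscle count was 29 with no filter, 16 with 1 probe set per gene, 95 with an intensity trend, 2998 with array weights, 136 at a threshold of 0.1, 12 without wild-type muscle 2 and 4, and 16 (without wild-type muscle 3) to 68 (without wild-type muscle 2) with 1 array left out. The count for the difference between tissues was 14 with a pseudocount of 1, 17 with the filter at the 0.5 quantile, 12 with 1 probe set per gene, 72 with array weights and 17 to 25 with 1 array left out. The tissue count ran between 24530 and 26099 with 1 array left out. Replicate numbers were not taken as pairs, and the labels do not say which samples share a mouse. Deviations of same-numbered PWS-IC del and wild-type arrays correlated at -0.38 to -0.01 in brain and 0.02 to 0.42 in muscle. Those of same-numbered brain and muscle arrays correlated at -0.01 to 0.07 in wild-type and 0.07 to 0.17 in PWS-IC del. For different numbers the brain and muscle values were -0.11 to 0.13 in wild-type and -0.15 to 0.10 in PWS-IC del. These values cannot settle whether equal numbers mark 1 mouse. With the replicate number as a block the imprinted calls were 0 in both tissues, 0 for their difference and 58 between tissues, and those of all probe sets 11 in brain, 12 in muscle, 16 for the difference and 25273 between tissues. At the genes' probe sets with the highest mean, tissue differences that changed sign were those of Ascl2 (-0.56 with quantile normalization, -0.60 with median centring, -0.0032 without wild-type brain 3, -0.025 without wild-type brain 1 and 3 and wild-type muscle 2 and 4), Osbpl5 (-0.047) and Trappc9 (-0.040) with quantile normalization, Zim1 (-0.052) and Gnas (-0.47) with median centring, and Grb10 (0.12 with array weights, 0.030 without wild-type muscle 1, 0.089 without wild-type brain 1, 0.086 without wild-type brain 2, and a range of -0.19 to 0.089 with 1 array left out). With median centring or quantile normalization, further probe sets of Usp29, Plagl1, Grb10 and Gnas also changed sign. Of the other gene values, 970 kept their direction and their side of the threshold, 17 no longer passed it and 9 newly did. Apart from the settings that change what is tested, the cause was not tested. Values near the floor limit what could be tested, and without detection calls a dim probe set cannot be told from background.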
